A study of Homo sapiens with 2 samples.

Results

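The genes described here are 10 hepatic acute-phase genes, SAA1, SAA2, SAA4, CRP, HP, HPX, ORM1, ORM2, LBP and LCN2, taken by gene name from a count table of 58735 genes. All 10 were found in the table. They were read in 1 RNA library of MAEL WT and 1 RNA library of MAEL KO cells of PLC8024, a hepatoma line that the study's methods also call PLC/PRF/5. The MAEL WT cells are labelled wildtype and non-treated. The MAEL KO cells carried an sgRNA and Cas9 knockout of MAEL and, per the study's methods, were raised from mCherry-sorted cells seeded as single clones, so an effect of the knockout and a property of a clone cannot be told apart. With 1 library per condition no difference below has a replicate check and no test was made. The intervals and limits below are 95% exact ones and cover counting error only.

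Acute-phase proteins are plasma proteins that the liver releases in larger or smaller amounts during inflammation. In hepatocytes, IL-6 type cytokines act mainly through STAT3, and IL-1 and TNF act through NF-kB and C/EBP factors, to raise the transcription of the positive members. SAA1, SAA2 and CRP are classically the most inducible members in human liver, while ORM1, HP, HPX and LBP are made at a substantial level in healthy liver and rise further.

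Total counts were 19904136 in MAEL WT and 20833332 in MAEL KO. At these depths the floor of 3 counts corresponds to 0.151 and 0.144 CPM. MAEL itself had 1 and 0 counts, so the labels could not be checked by the targeted gene. All 11 hepatocyte or hepatoma markers were above the floor, with summed counts of 251454 in MAEL WT and 516091 in MAEL KO. Most of these reads came from SERPINA1, APOB and TF, and SERPINA1 is also a positive acute-phase gene listed below. In MAEL WT, ALB, AFP and TTR had 59, 26 and 20 counts. A place above the floor does not by itself establish the identity of the cells. Of 7 macrophage and other leukocyte markers, 4 passed the floor, MARCO and CD3E were at 0 in both libraries, PTPRC had 3 and 0 counts, and the summed counts were 1313 and 755, most of them from LYZ. The neutrophil markers summed to 49 and 2 counts, with FCGR3B at 0 and CSF3R at 48 and 1. The fibroblast or stellate markers summed to 221 and 41, most of them from PDGFRB (122 and 29) and COL1A1 (92 and 11). The endothelial markers summed to 354 and 407, most of them from PECAM1. The part of these markers in the results was not tested.

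RefSeq promoter sequences matched 5 of the 10 genes, namely SAA4, CRP, HPX, ORM1 and LCN2. Those of 4 genes are shown, because these 4 genes span the range found here, from the highest level (ORM1) through a level that changed little (HPX) and a low level (LCN2) to no reads at all (CRP). Each run gives the 250 bases before the RefSeq transcription start on GRCh38.p14, 5′ to 3′ on the gene's strand. ORM1 is at chr9:114322848-114323097 on the plus strand, HPX at chr11:6440988-6441237 on the minus strand, LCN2 at chr9:128149203-128149452 on the plus strand and CRP at chr1:159714590-159714839 on the minus strand. The HPX and LCN2 runs lie inside the spans of these genes in GENCODE 29, which begin further upstream, and the last bases of the ORM1 run lie inside its span. Distances below are from the RefSeq start alone. Capitals mark matches to any of 5 motifs on either strand.

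ORM1: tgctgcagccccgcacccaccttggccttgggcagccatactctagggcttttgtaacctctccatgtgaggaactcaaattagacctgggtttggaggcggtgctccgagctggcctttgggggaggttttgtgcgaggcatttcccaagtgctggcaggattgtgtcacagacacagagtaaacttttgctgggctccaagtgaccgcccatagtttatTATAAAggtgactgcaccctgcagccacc

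HPX: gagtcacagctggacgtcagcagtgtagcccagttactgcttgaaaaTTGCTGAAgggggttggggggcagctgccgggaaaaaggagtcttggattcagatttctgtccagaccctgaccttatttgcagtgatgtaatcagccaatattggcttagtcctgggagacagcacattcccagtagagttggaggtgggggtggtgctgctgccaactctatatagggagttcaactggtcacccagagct

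LCN2: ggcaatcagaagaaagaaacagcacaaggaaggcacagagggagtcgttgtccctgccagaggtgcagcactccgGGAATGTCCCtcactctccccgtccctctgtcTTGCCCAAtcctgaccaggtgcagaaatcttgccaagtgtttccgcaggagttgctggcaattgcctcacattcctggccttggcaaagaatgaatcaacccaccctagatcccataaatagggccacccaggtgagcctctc

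CRP: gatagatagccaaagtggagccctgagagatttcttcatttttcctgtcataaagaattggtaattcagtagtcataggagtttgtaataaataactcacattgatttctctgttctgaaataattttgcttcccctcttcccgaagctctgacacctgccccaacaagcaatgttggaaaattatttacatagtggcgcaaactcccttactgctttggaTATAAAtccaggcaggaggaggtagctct

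The motifs were TTGCNNAA for C/EBP, TTCNNNGAA for STAT3, GTTAATNAT for HNF1, TATAAA for a TATA box, and the NF-kB consensus. They were looked for in windows of 300 bases, which add the 50 bases after the start. The C/EBP letters were in 3 of the 5 windows, those of SAA4, HPX and LCN2, and in 10.5% of the 35116 windows of all genes. SAA4 held 3 such matches, and HPX and LCN2 held 1 each, which began 203 and 143 bases before the start. LCN2 also held the 1 NF-kB match, 175 bases before the start, a motif found in 11.3% of all windows. The TATA letters began 29 bases before the start in both ORM1 and CRP, and 11.5% of all windows hold them. No window held the STAT3 or HNF1 letters, which are in 7.66% and 0.792% of all windows. A match is a description of letters and not a binding site, and the absence of a match says nothing of the factor.

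The 10 genes together took 1996 reads in MAEL WT and 4001 in MAEL KO, which is 0.01% and 0.0192% of the counted reads. Of the 10 genes, 6 passed the filter of at least 10 counts in 1 library, namely ORM1, ORM2, HPX, LBP, LCN2 and HP. SAA1, SAA2, SAA4 and CRP did not. Among the 6, ORM2 and HP had a log2 fold change of MAEL KO over MAEL WT above 2, the cutoff in the study's methods, and none was below -2. Among all 17887 genes tested, 2.16% were above 2 and 5.64% below -2. Here log2FC stands for the log2 ratio of MAEL KO to MAEL WT after TMM scaling with 1 added to the normalized counts, and its limits are those of the counting interval. HP passed the filter through its MAEL KO reads alone, so its place among the genes tested already required a higher level there.

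**Figure D1:**
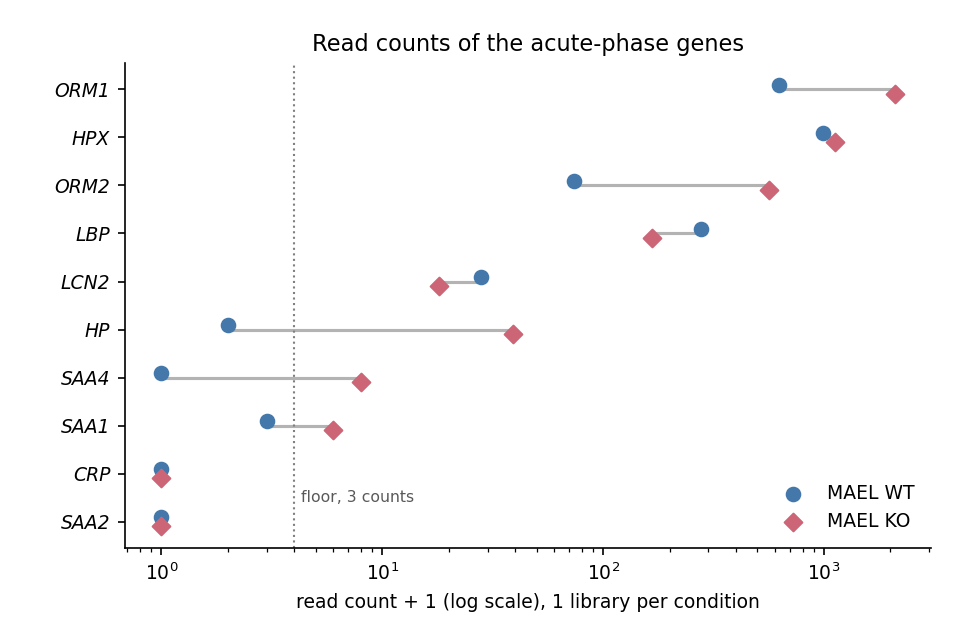
Read counts of the 10 genes in the MAEL WT library (circles) and the MAEL KO library (diamonds), on a log scale with 1 added, with a dotted line at the floor of 3 counts. ORM1, ORM2 and HP sat further right in MAEL KO, HPX nearly coincided, LBP and LCN2 sat further left, and CRP and SAA2 were at 0 in both libraries.

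ORM1 and ORM2 encode orosomucoid, or alpha-1-acid glycoprotein, a plasma lipocalin that binds basic drugs. ORM1 (ENSG00000229314) lies on chromosome 9 of GRCh38 from 114323056 to 114326475 and ORM2 (ENSG00000228278) from 114329869 to 114333252, both on the plus strand. ORM1 had 627 counts in MAEL WT and 2087 in MAEL KO. The normalized counts were 3.85-fold apart (interval 3.52 to 4.22), and the log2FC of 1.94, with limits of 1.82 and 2.08, lay just under the threshold with an interval that reached past it. ORM2 had 73 counts in MAEL WT and 564 in MAEL KO, and it rose 8.94-fold (interval 6.99 to 11.6), a log2FC of 3.14 that ranked 93 from the top among the genes tested. Taken as 1 locus, orosomucoid reads went from 700 to 2651, giving a log2FC of 2.13 with limits of 2.01 and 2.25.

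Within the pair, ORM2 took 10.4% of the reads in MAEL WT (95% Clopper-Pearson interval 8.26% to 12.9%) and 21.3% in MAEL KO (interval 19.7% to 22.9%). The ratio of KO to WT reads was 2.32 times larger for ORM2 than for ORM1 (limits 1.78 and 3.05), a value that no scaling between the libraries can move. The transcripts of the pair are close copies. Of the runs of 100 bases in GENCODE 29 transcripts, 29.6% of those of ORM1 and 35.9% of those of ORM2 also occur in the other gene, and for runs of 50 bases the shares were 42% and 50.2%. The read length and the treatment of reads with several matches are not given in the sources used here, so the division of reads between the paralogs is uncertain. Their sum does not depend on how counted reads were divided between the 2 genes. If reads that match both genes were left uncounted, they are missing from the sum too.

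The genes that flank the pair did not move with it. COL27A1, which ends 10.5 kb before ORM1, had 1169 and 1068 counts, giving a log2FC of 0.08 with limits of -0.04 and 0.20. AKNA, which lies 0.904 kb beyond ORM2 on the opposite strand, fell from 2635 to 249 counts, giving a log2FC of -3.19 with limits of -3.39 and -3.01. The orosomucoid genes thus stood next to a gene that was far lower in the library in which they were higher.

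HP encodes haptoglobin, which captures free haemoglobin, and HPX encodes hemopexin, which captures free haem. HP (ENSG00000257017, chromosome 16, 72054592 to 72061055, plus strand) had 1 count in MAEL WT and 38 in MAEL KO. The ratio of normalized counts was 44 with an interval of 7.43 to 1780, and with the floor of 3 counts in place of the single MAEL WT read it was 14.7. On the log2 scale with 1 added, HP rose by 4.44 (limits 2.89 and 10.80), rank 18 from the top, and the value was 2.95 with 5 added and 5.31 with 0.1 added. The MAEL WT level thus lay under the floor, and even in MAEL KO the level was low.

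HPR, the haptoglobin-related neighbour, had 4 and 6 counts and did not pass the filter. Of the runs of 100 bases in HP transcripts, 4.97% occur in transcripts of other genes, HPR among them. HP and HPR summed to 5 and 44 counts, giving a log2FC of 3.10 with limits of 2.02 and 5.04. TXNL4B spans HP on the opposite strand without sharing exon bases with it, and it had 345 and 307 counts, giving a log2FC of 0.04.

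HPX (ENSG00000110169, chromosome 11, 6431049 to 6442617, minus strand) was the member with the most reads in MAEL WT, and its reads differed little between the libraries. It had 989 counts in MAEL WT and 1118 in MAEL KO, giving a log2FC of 0.39 with limits of 0.26 and 0.51, and the log2FC was 0.11 when libraries were scaled by their totals. Its level in MAEL KO was thus near that in MAEL WT, whereas HP had almost no MAEL WT reads to compare with.

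LBP encodes the lipopolysaccharide-binding protein and LCN2 encodes lipocalin 2, a binder of bacterial siderophores. Both had fewer reads in MAEL KO, without reaching the threshold. LBP (ENSG00000129988, chromosome 20, 38346356 to 38377023, plus strand) had 277 counts in MAEL WT and 165 in MAEL KO, giving a log2FC of -0.53 with limits of -0.82 and -0.25. LCN2 (ENSG00000148346, chromosome 9, 128149071 to 128153455, plus strand) had 27 and 17 counts, giving a log2FC of -0.44, and its interval from -1.42 to 0.47 includes no change. No run of 50 bases in LBP, LCN2, HPX or CRP transcripts occurs in transcripts of another gene.

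**Figure D2:**
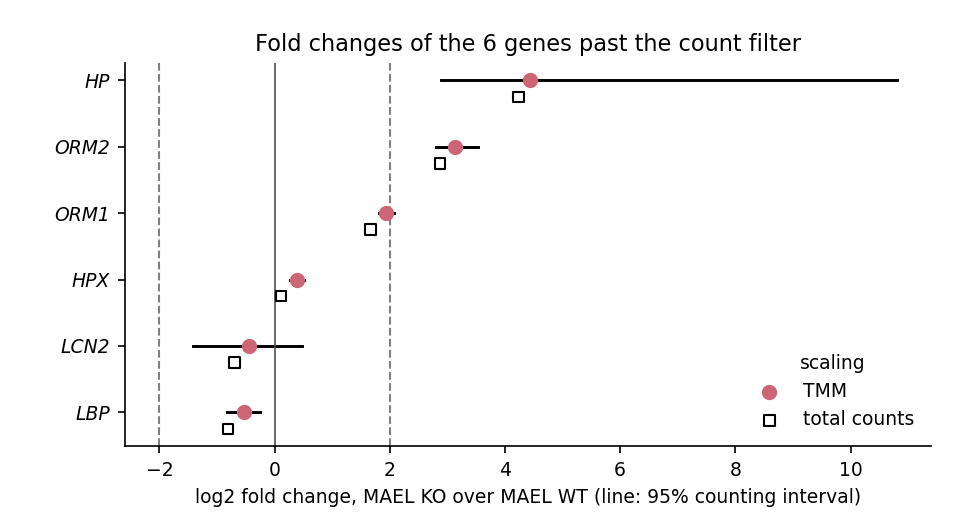
Log2 fold changes of MAEL KO over MAEL WT for the 6 genes past the count filter, with TMM scaling (filled circles, lines are 95% counting intervals) and with total counts (open squares), and dashed lines at -2 and 2. ORM2 at 3.14 and HP at 4.44 lay beyond the threshold under both scalings, ORM1 lay just below it, and LBP and LCN2 lay below 0.

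SAA1 and SAA2 encode the inducible serum amyloid A apolipoproteins of high-density lipoprotein, SAA4 a constitutive form, and CRP the pentraxin used clinically as a marker of inflammation. These genes were at or near the floor in both libraries. SAA1 (ENSG00000173432, chromosome 11, 18266174 to 18269977, plus strand) had 2 counts in MAEL WT and 5 in MAEL KO, a ratio of 2.89 with an interval of 0.474 to 30.4. SAA4 (ENSG00000148965, chromosome 11, 18231349 to 18236893, minus strand) had 0 and 7 counts. With the floor of 3 counts in place of the 0 it was 2.7-fold higher in MAEL KO, and the lower limit of its ratio by the counting interval was 1.67. SAA2 (ENSG00000134339, chromosome 11, 18239223 to 18248643, minus strand) and CRP (ENSG00000132693, chromosome 1, 159712289 to 159714589, minus strand) had 0 counts in both libraries, so no fold change was computed.

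Reads of the serum amyloid A locus can belong to several annotated genes. The read-through gene SAA2-SAA4 covers 65.5% of the exon bases of SAA4 on the same strand, and it and RNA5SP333 together cover 14.3% of those of SAA2. Of the runs of 100 bases, 28.5% in SAA1 and 15% in SAA2 occur in other genes. SAA2-SAA4 had 0 counts in both libraries and the pseudogene SAA3P had 3 and 0. CRP shares no exon base with another gene, and its level was not detectable at these depths.

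Levels were compared between genes only per length, as FPKM values of the deposited table with exact Poisson intervals. In MAEL WT the order was ORM1 at 31.8 FPKM (interval 29.4 to 34.4), HPX at 12.5 (11.7 to 13.3), LBP at 6.46 (5.72 to 7.27), ORM2 at 4.39 (3.44 to 5.52) and LCN2 at 0.772 (0.509 to 1.12). SAA1, at 0.115 (0.0139 to 0.415), and HP, at 0.00846 (0.000214 to 0.0471), followed with overlapping intervals. In MAEL KO the order was ORM1 at 122 FPKM (117 to 128), ORM2 at 39.1 (36 to 42.5), HPX at 16.2 (15.3 to 17.2) and LBP at 4.44 (3.79 to 5.17). LCN2 at 0.561 (0.327 to 0.898), SAA4 at 0.508 (0.204 to 1.05), HP at 0.371 (0.262 to 0.509) and SAA1 at 0.331 (0.108 to 0.773) had overlapping intervals and no order can be read among them. With the listed lengths, ORM2 passed from below LBP to above HPX.

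The level of HPX depends on the length used, and so does how clearly it lies below ORM2 in MAEL KO. The listed length is the union of exons over all transcripts, 3631 bases for HPX and 5405 for HP, while their longest GENCODE 29 transcripts have 1652 and 3024 bases. With the longest transcript as the length, HPX was at 27.4 FPKM in MAEL WT and 35.7 in MAEL KO, ORM1 at 35.7 and 137, and ORM2, with 1 transcript, at 4.39 and 39.1 as before. The HPX value of 35.7 in MAEL KO is next to the lower limit of 36 for ORM2. No order between HPX and ORM2 in MAEL KO can be read with that length. Among protein-coding genes, the FPKM of ORM1 stood at percentile 93.7 in MAEL WT and 98.5 in MAEL KO, and that of ORM2 at 62.7 and 94.

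**Figure D3:**
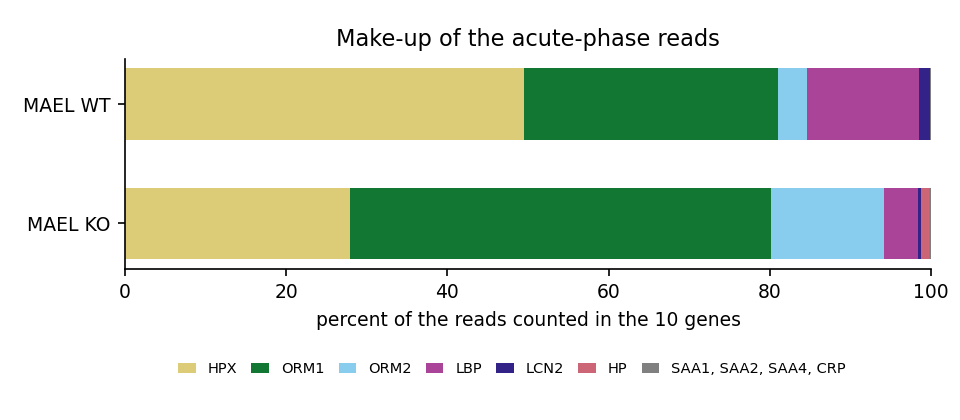
Percent of the reads counted in the 10 genes that fell in each gene, for the MAEL WT and MAEL KO libraries. HPX went from 49.5% to 27.9% and LBP from 13.9% to 4.12%, while ORM1 went from 31.4% to 52.2% and ORM2 from 3.66% to 14.1%.

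HPX took 49.5% of the members' reads in MAEL WT (95% Clopper-Pearson interval 47.3% to 51.8%) and 27.9% in MAEL KO (26.6% to 29.4%), although its counts, 989 and 1118, were near each other. ORM1 took 31.4% (29.4% to 33.5%) and 52.2% (50.6% to 53.7%).

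Beside the members, 21 other positive acute-phase genes were listed, of which 15 passed the filter. MBL2 was above the threshold and none was below. Their median log2 fold change was 0.39, beside 1.17 for the 6 members tested and -0.04 for all genes tested, as a description of these libraries. The members' median depends on HP, which passed the filter through its MAEL KO reads alone. With HP left out, the middle value of the members tested is that of HPX, 0.39. MBL2, the mannose-binding lectin, went from 1 to 63 counts, giving a log2FC of 5.16 with limits of 3.66 and 11.51. Like HP it passed the filter through MAEL KO alone, and its ratio was 72.9 as counted and 24.3 with the floor in place of the MAEL WT read. SERPINA1, the main plasma inhibitor of neutrophil elastase, went from 78162 to 232891 counts, giving a log2FC of 1.79 with limits of 1.77 and 1.80, and SERPING1, the C1 inhibitor, was at 1.69. At the other end were C4B at -1.44, ITIH3 at -1.30 and C4A at -0.44, and C4A and C4B are near-identical copies that can share reads. The fibrinogen chains, named after their values were seen, were unequal, with log2 fold changes of 1.41 for FGB, 0.39 for FGA and 0.33 for FGG. SERPINA3, named on the same basis, had 1 count in each library.

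The genes listed as negative acute-phase genes mostly encode plasma proteins whose synthesis falls in inflammation. Of 10 listed, 9 passed the filter, and 7 of these were above the threshold and none below. Their median log2 fold change was 2.42, and all 9 were above 0 with TMM factors, DESeq2 size factors, total counts and FPKM ratios, with 5 past the threshold under total counts. The DESeq2 size factors and FPKM ratios carry nearly the same scaling between libraries as TMM, so they are not separate checks. ALB (albumin) was at 7.36, APOA1 (the main protein of high-density lipoprotein) at 3.60 and SERPINC1 (antithrombin) at 3.16. SERPINC1 had 8 counts in MAEL WT and 69 in MAEL KO, so like HP it passed the filter through MAEL KO alone. At the lower end were TTPA at 2.11, RBP4 at 0.89 and TF (transferrin) at 0.36. Some positive members, such as ORM2 and HP, and negative genes such as ALB and APOA1 were thus higher in the same library. LBP and LCN2 had fewer reads there, and of 15 other positive genes tested 10 were above 0 and 5 below. The hepatocyte or hepatoma markers, of which several are on the negative list, were higher in sum in MAEL KO as given above. Their part in the orosomucoid and haptoglobin values was not tested.

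**Figure D4:**
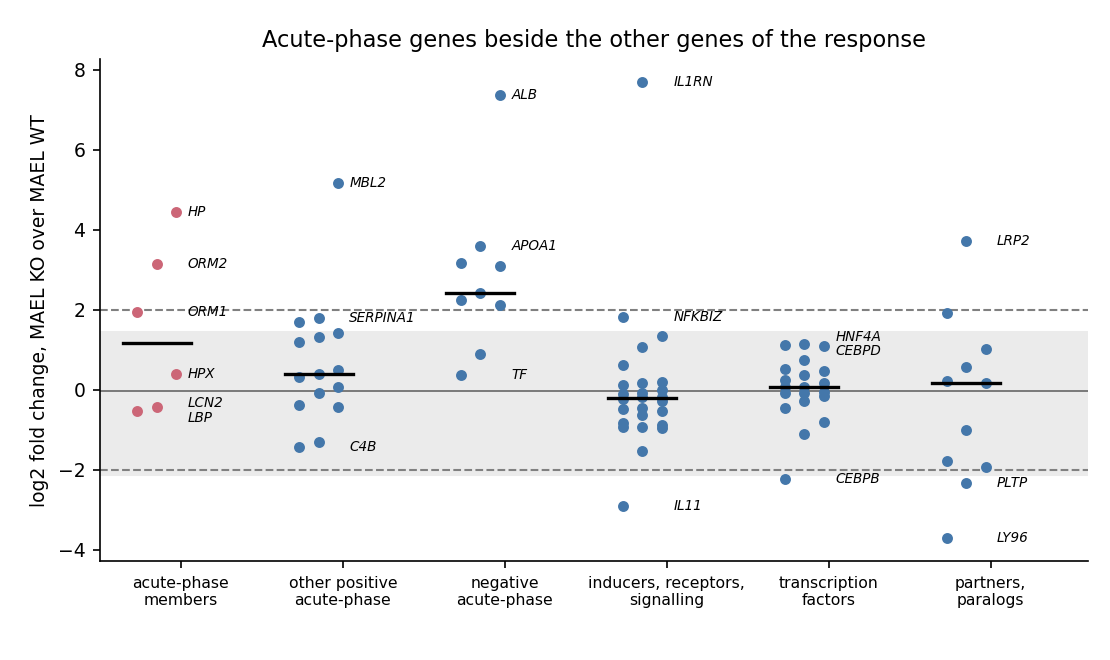
Log2 fold changes of MAEL KO over MAEL WT for the acute-phase members and for 5 lists of related genes past the count filter, with a bar at each list's median, dashed lines at -2 and 2, and a grey band from percentile 5 to 95 of all genes tested (-2.14 to 1.44). The negative acute-phase genes had a median of 2.42, and CEBPB and IL11 lay below -2. IL1RN and LY96 had 0 counts in 1 library, so their plotted values depend on the 1 added.

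Of 31 inducers, receptors and signalling genes, 26 passed the filter. IL6, IL1B, TNF and OSM had 0 counts in both libraries and IL1A had 0 and 1, so the cells gave almost no reads of the classic inducers. IL1RN, the secreted antagonist of the IL-1 receptor, was above the threshold, with 0 and 191 counts, and it passed the filter through MAEL KO alone. With the floor of 3 counts in place of the 0 it was 73.7-fold higher, with a lower limit of 59.3 by the counting interval. IL11, a cytokine of the IL-6 family, fell from 321 to 36 counts, giving a log2FC of -2.91 with limits of -3.49 and -2.45. The next at the upper end were NFKBIZ, an atypical IkB protein, at 1.81 and IL1RAP, the shared chain of IL-1 family receptors, at 1.35. At the lower end were IRAK2, a kinase of IL-1 receptor signalling, at -1.52 and LIFR, the receptor of LIF, at -0.95. The list's median was -0.21.

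All 20 listed transcription factors passed the filter, and CEBPB alone was past the threshold. CEBPB, a factor that binds IL-6 response elements of acute-phase promoters, fell from 9375 to 1723 counts, giving a log2FC of -2.23 with limits of -2.31 and -2.16. CEBPD, its relative that is itself induced in the acute phase, went the other way, from 700 to 1295 counts at 1.10 (limits 0.96 and 1.23). HNF4A, a liver-enriched nuclear receptor, was at 1.15, while CEBPG, another member of the C/EBP family, was at -1.10. STAT3, named after its values were seen, had 2967 and 2113 counts, giving a log2FC of -0.28 with limits of -0.36 and -0.20. The median of the factors was 0.07, and -0.21 with total counts. Beside these values ORM2 and HP were higher, and the part of any factor was not tested.

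Of 22 partners and paralogs of the members, 11 passed the filter, with LRP2 above the threshold and LY96 and PLTP below it. The place of LY96 there rests on the 1 added to its count of 0, and 2 genes of the list were past the threshold with 5 added and 4 with 0.1 added. LRP2, or megalin, an endocytic receptor that takes up lipocalins including LCN2, went from 406 to 4638 counts, giving a log2FC of 3.72 with limits of 3.58 and 3.87. LCN15, a lipocalin, was at 1.92 and SCARB1, a receptor of high-density lipoprotein and of serum amyloid A, at 1.03. LY96, the partner of TLR4 in sensing lipopolysaccharide, had 13 and 0 counts and passed the filter through MAEL WT alone. With the floor of 3 counts in place of the 0 it was 3.75-fold lower, and the upper limit of its ratio by the counting interval was 0.38. PLTP, a phospholipid transfer protein of the LBP family, fell from 156 to 26 counts, giving a log2FC of -2.33 with limits of -3.03 and -1.77. CD163, the haptoglobin-haemoglobin receptor and a macrophage marker, had 52 and 11 counts, at -1.94. APCS, the pentraxin next of kin to CRP, and TLR4 had 0 counts in both libraries.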

How the data were processed

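RNA of PLC8024 cells was sequenced on a HiSeq platform, 1 library per condition. The authors deposited raw read counts per gene and FPKM values. The deposited FPKM values equal counts over the listed gene length and a library size of 21872531 in MAEL WT and 18958459 in MAEL KO. They thus include a scaling of 1.099 and 0.91 times the total counts. The submitters' processing notes name HISAT2 2.0.5, featureCounts 1.5.0-p3 and the build hg19. The deposited coordinates are those of GRCh38, since all 58735 genes had the same start and end in GENCODE 29. Strand and multi-match settings are not given in the sources used here.

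Counts were scaled by TMM (factors 1.10044 and 0.908725) in edgeR 4.0.16, with DESeq2 1.42.0 size factors as an alternative, in R 4.3.3. Fold changes and intervals were computed in Python 3.11.15 with SciPy 1.17.1. The log2 fold change has 1 added to both normalized counts and was taken for genes with at least 10 counts in 1 library. A gene at 0 in 1 library is given as a ratio with 3 counts in place of the 0, beside the limit of its counting interval. No p-value is given, since neither condition has a second library. The fold change and interval steps were run on simulated Poisson counts with known changes. These counts held no variation between clones or libraries, so the run checked the computation alone. Motif and transcript sequences are from RefSeq and GENCODE 29 tables.

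The members and lists were chosen with earlier results of these data known. Genes named are the members, the 3 highest and 3 lowest of each list, genes that can share reads with a member, the nearest tested genes on each side, and markers above the floor, a part of which is given as sums. Some transcription factors that this rule names are not reported here.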

Additional observations from a re-analysis of the deposited data

How the results depend on the processing

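No library could be left out and no paired analysis was possible because each condition has 1 library. Of 41 values of the members' log2 fold changes under alternatives, 38 lay within the counting interval of the reported value, 3 did not and 0 changed sign. A part of the 38 could not differ. Dropping the filter leaves each fold change as it is, and summing paralogs alters only ORM1 and HP among the members tested. The DESeq2 size factors and FPKM ratios scale the libraries nearly as TMM does, so their values could hardly differ. With total counts ORM1 was at 1.67 and HPX at 0.11, and that scaling moved the median of all genes tested from -0.04 to -0.31. With paralogs summed, ORM1 with ORM2 was at 2.13 and so past the threshold.

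ORM2 and HP, the 2 members above the threshold, were above it with DESeq2 size factors, total counts, FPKM ratios, prior counts of 0.1 and 5 and protein-coding genes alone. The DESeq2 size factors and FPKM ratios carry nearly the same scaling between libraries as TMM, so they are not separate checks. Keeping protein-coding genes alone leaves the values of ORM2 and HP as they are, so it could not change their place. Where the filter asked for 100 counts 1 member was left above it, since HP has fewer reads. With the log2 cutoff lowered to 1 ORM1 joined them, and SAA4 joined them where no filter was set. No member was below the threshold under any of the 10 alternatives.

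Among other positive acute-phase genes 1 was past the threshold. It was 3 with the filter dropped, 0 where 100 counts were required and 8 with a log2 cutoff of 1. That cutoff gave 6 in place of 2 inducers, receptors and signalling genes, 5 in place of 1 transcription factor, and 8 in place of 3 partners and paralogs, of which library totals gave 5. These 4 lists had 15, 26, 20 and 11 genes past the filter, in the order given. At the cutoff of 1, 10.2% of all genes tested were above it and 16.5% below -1, so counts rise for any list. Over all genes, 387 were above and 1008 below the threshold. Adding 5 rather than 1 left 250 above and 513 below, dropping the filter left 1029 and 1773, requiring 100 counts left 185 and 283, and the cutoff of 1 left 1827 and 2951. Scaling by library totals left 269 above and 1309 below. Depth limits SAA1, SAA2, SAA4, CRP and the MAEL WT level of HP, which are at or near the floor.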

Other observations

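The tested genes nearest to the remaining members did not share 1 direction. On the sides of the serum amyloid A cluster, SAAL1, 125 kb away, went from 247 to 390 counts, giving a log2FC of 0.87 with limits of 0.64 and 1.11, and HPS5, 8.69 kb beyond SAA1, from 721 to 732 counts at 0.23, while ST13P5, a pseudogene within the cluster, had 11 and 7 counts. Beside HP, DHODH was at 0.45 and DHX38 at 0.10. Beside HPX, APBB1 had 689 and 300 counts, giving a log2FC of -0.99 with limits of -1.19 and -0.79, and TRIM3 was at -0.37. The nearest tested genes of LBP were TGM2 and AL391095.1. TGM2, which encodes tissue transglutaminase and lies 180 kb away, had 2786 and 8453 counts, giving a log2FC of 1.81 with limits of 1.75 and 1.87, and AL391095.1, 29 kb away, had 22 and 12 counts, while LBP itself was at -0.53. Beside LCN2, PTGES2 was at 0.43 and C9orf16 at -0.30. For CRP, which had no reads, the nearest tested genes were distant. DUSP23, 66.3 kb away, had 104 and 34 counts, giving a log2FC of -1.38, and the pseudogene ELL2P1, 1530 kb away, had 14 and 7.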
